A study of Sus scrofa with 24 samples.

Results

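UBD encodes ubiquitin D, better known as FAT10, a small protein made of a pair of ubiquitin-like domains. It was represented on the array by 1 probe, found as the only one of 43603 non-control probes whose gene name, description or accession field names UBD, and is 1 of 5275 genes that could be named on the array. Liver RNA of 24 pigs (Sus scrofa) of 115 kg body weight was measured, 1 pig per array. Residual feed intake (RFI) is the feed an animal eats beyond what its growth and maintenance predict. The 3 groups of 8 pigs were restricted high RFI pigs (RFIplR), which belong to the high RFI line and received feed at the RFIneg feeding level, high RFI pigs (RFIpl) fed ad libitum, and low RFI pigs (RFIneg) fed ad libitum. No restricted pigs of the low line were part of the series, so feeding level was varied in the high line alone, and anything else in which the lines differ cannot be told apart from RFI itself. UBD was picked out because its level followed the line in these same 24 pigs, so its levels and group differences are given below as a description, with no test.

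FAT10 is attached to other proteins by the activating enzyme UBA6 and the conjugating enzyme UBE2Z, and it carries them to the proteasome without being removed first, helped by NUB1. Its gene is known in human and mouse as strongly inducible by interferon gamma and tumour necrosis factor, is expressed constitutively in immune cells and thymus, and lies next to the major histocompatibility complex. In liver it is best known from chronic injury and liver cancer, where it is raised together with the keratin aggregates called Mallory-Denk bodies. In mice that lack FAT10, body fat is reduced and energy use is raised. These roles are known from human and mouse.

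The oligonucleotide below is shown because every UBD value in this text rests on this single probe. According to the array file it begins at base 421 of the pig UBD mRNA, whose gene the RefSeq table of the Sscrofa11.1 assembly places on chromosome 7. It is 60 bases long with 45% G or C, and capitals mark bases 20 to 34, the longest run of 15 bases that it shares with any other probe of the array, in either orientation.

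UBD probe A_72_P441035: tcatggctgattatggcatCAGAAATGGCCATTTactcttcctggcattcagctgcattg

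A single other probe shared a run of that length, and no other probe carried an accession of the UBD transcript. The UBD spot was well above background on all 24 arrays and was never saturated or marked as an outlier. Its background-subtracted signal ran over 484.1 to 1031.1 units in restricted high RFI, 485.2 to 1264.3 in high RFI and 181 to 589.9 in low RFI pigs, and the median pixel of its local background was at most 39 units. UBD therefore stayed measurable in the lowest animals. With 1 probe and 1 spot per array there is no second measurement of the transcript within a pig.

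A level is the log2 processed signal of a spot after subtracting the 75th percentile of its array, so 0 is the brightness that 75% of spots do not exceed. UBD reached a lowest level of 0.36, a median of 0.79 and a highest level of 1.37 in restricted high RFI pigs. In high RFI pigs these levels were 0.13, 1.23 and 1.64. In low RFI pigs they were -1.22, -0.75 and 0.39. All 8 pigs of each high line group had more UBD than the low RFI mean, and 7 of the 8 low RFI pigs lay below all 16 pigs of the high line. The exception was low RFI pig 7, at 0.39, which lay above high RFI pig 4 at 0.13 and restricted pig 7 at 0.36. It ranked 15 among the 24 pigs, and the next low RFI pig, pig 2, ranked 18 at -0.36.

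**Figure D1:**
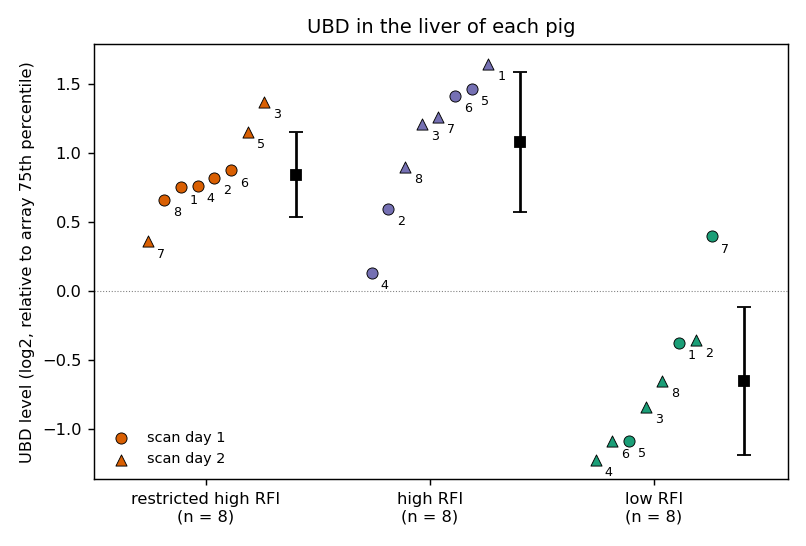
UBD level of each pig on the y axis (log2, relative to the array's 75th percentile) in restricted high RFI, high RFI and low RFI pigs, labelled by pig number, with circles for scan day 1 and triangles for scan day 2. Squares and bars are means and SD (n = 8 each), and low RFI pig 7 at 0.39 is the only low RFI pig within the range of the high line.

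Group means were 0.84 ± 0.31 in restricted high RFI, 1.07 ± 0.51 in high RFI and -0.65 ± 0.53 in low RFI pigs (SD, n = 8 each). The difference between restricted high and low RFI pigs was 1.50 ± 0.22 (SE), a 2.82-fold higher level (95% interval 2.06 to 3.86). High minus low RFI was 1.73 ± 0.22 (SE), a 3.32-fold higher level (95% interval 2.42 to 4.54). These comparisons share the low RFI pigs. Between feeding levels of the high line the difference was -0.23 ± 0.22 (SE), and its 95% interval of -0.69 to 0.22 takes in 0. In 19 of 64 pairs of a restricted and a high RFI pig the restricted pig had the higher level. In order, the high RFI mean stood above the restricted mean by less than the spread between pigs, and both stood apart from the low RFI mean by more than that spread. In whole liver, a change in the number of cells that carry a transcript and a change of RNA per cell cannot be told apart.

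UBD varied more from pig to pig than most transcripts. Its SD within groups was 0.46, above that of 83.4% of the 29666 probes that were kept (median 0.27). Kept means that 6 or more of the 8 arrays of some group had the spot well above background. Complete separation of the groups was rare on the array, at 0.135% of kept probes between restricted high and low RFI pigs 0.138% between high and low RFI pigs and 0.027% between restricted high and high RFI pigs, and UBD was not among these because of the overlap just given.

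The arrays lay on 6 slides of 4, scanned on 2 days. On each slide the pigs of the high line all had more UBD than the low RFI pigs of the same slide. On slide 1, which held low RFI pig 7, the 3 high line pigs had 0.59 to 0.76 against 0.39 in that pig, a gap of 0.31 between the means. On slide 4 the 2 high line pigs had 1.21 and 1.37, against -1.22 and -1.09 in 2 low RFI pigs, and there the gap was 2.45. The gap was 1.11 on slide 2, 2.14 on slide 3, 1.33 on slide 5 and 1.95 on slide 6. A slide held only 1 or 2 low RFI pigs, and UBD was chosen on these pigs, so the recurrence by slide is no separate evidence.

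**Figure D2:**
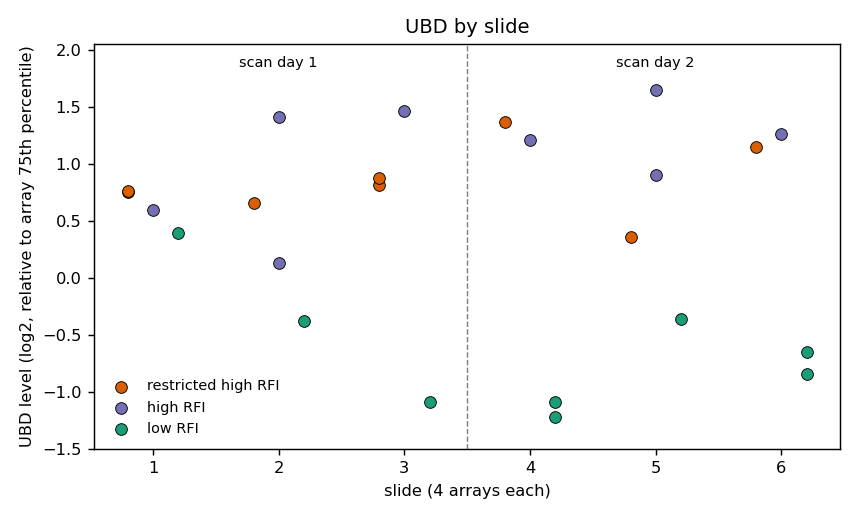
UBD level of each pig (log2, relative to the array's 75th percentile) by slide, with the groups offset within a slide and the dashed line between the scan days. On each of the 6 slides the low RFI pigs lie below the restricted high and high RFI pigs, with the smallest gap on slide 1 and the largest on slide 4.

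The estimated line differences were smaller on scan day 1 than on scan day 2, and whether they differ by day was not tested. On day 1 the restricted high minus low difference was 1.13 ± 0.34 and the high minus low difference 1.25 ± 0.35 (SE, 5 restricted, 4 high and 3 low RFI pigs). On day 2 they were 1.79 ± 0.26 and 2.09 ± 0.24 (SE, 3 restricted, 4 high and 5 low RFI pigs). Low RFI pig 7 was one of the 3 low RFI pigs of day 1. Blocking on slide gave 1.48 and 1.74. No relation of the UBD deviations from group means to the quality of the arrays was detected, with r = -0.083 to the share of spots above background (permutation p = 0.706, adjusted p = 0.881, rho = -0.15 with permutation p = 0.49) and r = -0.034 to the array's 75th percentile (permutation p = 0.881, adjusted p = 0.881, rho = -0.050 with permutation p = 0.82, 24 pigs, 2 relations, two-sided). Without the 2 pigs farthest from the median deviation, r was -0.11 and -0.074.

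OAZ3, which encodes an antizyme that restrains polyamine synthesis, was the named gene whose level over all 24 arrays was most like UBD (Pearson r = 0.82, groups left in). In low RFI pig 7 OAZ3 was at 0.23, where the other low RFI pigs had -2.86 to -2.02. Restricted high RFI pigs had 0.39 ± 0.68 and high RFI pigs 0.31 ± 0.54 (SD, n = 8 each). That pig was high for its group in both genes. Within the low RFI group the r of UBD with OAZ3 was 0.82 over 8 pigs and 0.31 without pig 7. With group means removed it was 0.35 over 24 pigs and 0.022 without the 2 pigs farthest from the median, low RFI pig 7 and high RFI pig 4. On scan day 1 alone OAZ3 did not pass the threshold in either line comparison.

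After OAZ3 the named genes most like UBD with groups left in were PSMB4, a subunit of the proteasome core (r = 0.70), CYTH4 (0.69), the insulin-responsive glucose transporter SLC2A4 (0.69), MTRF1 (0.68), the bile acid transporter subunit SLC51B (0.67), the mitochondrial protease subunit CLPX (0.67), the cytochrome P450 CYP3A29 (0.66), the sphingomyelinase SMPD2 (0.65) and FAM83F (0.65). The points share pigs, slides and the line difference by which UBD stands out, so these values have no test. Of this group OAZ3 passed the threshold in both line comparisons, by the probe named and by its other probe. That other probe differed by 1.37 between restricted high and low and by 1.32 between high and low RFI pigs (limma adjusted p = 0.0144 and 0.0171). The OAZ3 probe named differed by 2.44 and 2.36. SLC2A4 and MTRF1 passed between restricted high and low RFI pigs only. SLC2A4 differed there by 1.01 (limma adjusted p = 0.0263) and MTRF1 by 0.64 (limma adjusted p = 0.0366), and whether their line difference depends on feeding was not tested. Both calls were lost under several alternatives, among them slide as a block. The 2 other probes of SLC2A4 differed there by 0.068 to 0.092 and the 3 other probes of MTRF1 by -0.013 to 0.039, and none of them passed. The other probes of MTRF1 also stood apart in likeness: their within-group r with UBD was -0.53 to -0.12, against 0.15 for the probe named. CLPX had 1 kept probe, whose levels resembled those of SLC51B pig by pig. High RFI pig 4 was the lowest of its group in CLPX and SLC51B, at -2.09 and -3.09. Restricted pig 5 was the highest of its group in both, at 0.64 and -0.42. Whether the CLPX probe reads a transcript separate from SLC51B was not tested.

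The measured genes of a list on FAT10 conjugation and degradation showed no line difference past the threshold. Of 13 genes in this list, 6 had a named and kept probe. They were NUB1, identified through a transcript contig described as similar to macaque NUB1, PSMD4, the proteasome subunit that receives ubiquitin chains and FAT10, the segregase VCP, the deubiquitinase OTUB1, the ubiquitin-activating enzyme UBA1 and the importin KPNB1. No probe could be named as UBA6 or UBE2Z, so no values can be given for the enzymes that attach FAT10. Limma called 0 of the 6 in each of the 3 comparisons, and 0 of 6 had an unadjusted p under 0.05. By comparison 0.229% of all kept probes were called between restricted high and low RFI pigs (0.125% upward and 0.104% downward), 0.162% between the lines fed ad libitum (0.0809% upward and 0.0809% downward) and 0.0% between restricted high and high RFI pigs (0.0% in either direction). NUB1 averaged 3.23 ± 0.33 in restricted high, 3.20 ± 0.51 in high and 2.97 ± 0.57 in low RFI pigs (SD, n = 8 each). Its differences from low RFI pigs were 0.26 and 0.23, the largest of the 6 in size. OTUB1 had the highest within-group r with UBD of the 6, at 0.54 (rho = 0.48), with an unadjusted p = 0.013 in the limma slope fit described below, where it did not pass after adjustment. The list median was 0.058 for restricted high minus low and 0.025 for high minus low RFI, beside -0.0092 and -0.011 over all 4393 named genes.

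Other ubiquitin-like modifiers and ubiquitin genes likewise gave 0 calls among 10 measured. ISG15, an interferon-induced modifier, had the largest high minus low difference of the 10, at 0.94 ± 0.63 (SE, limma adjusted p = 0.676), and it was 0.49 between restricted high and low RFI pigs. High RFI pigs 5 and 7 had ISG15 levels of 7.60 and 8.18, the other high RFI pigs 2.72 to 4.78 and low RFI pigs 2.98 to 5.15. SUMO2, which marks proteins for altered activity or location, was at -0.15 ± 0.06 between restricted high and low and at -0.14 ± 0.06 between high and low RFI pigs (SE, limma adjusted p = 0.31 and 0.468). The ubiquitin gene RPS27A was at -0.15 for high minus low RFI.

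The proteasome, where FAT10 and its cargo are degraded, differed little between groups. Of 19 measured genes of the constitutive proteasome limma called 0, and their differences between high and low RFI pigs ran from -0.14 to 0.17. The core subunit PSMA1 differed by 0.15 ± 0.06 between restricted high and low and by 0.17 ± 0.06 between high and low RFI pigs (SE, limma adjusted p = 0.318 and 0.37). The core subunit PSMB4 had 10 kept probes, and each had a within-group r with UBD above 0, from 0.24 to 0.53. By its brightest probe it averaged 5.54 ± 0.08 in restricted high, 5.52 ± 0.11 in high and 5.41 ± 0.07 in low RFI pigs (SD, n = 8 each).

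Cytokines, receptors and transcription factors that act upstream of UBD in human cells gave 0 calls among 23 measured genes. IFNG itself was dim, with means of -4.82 in restricted high, -4.71 in high and -4.98 in low RFI pigs. TNF had 0.74, 0.87 and 0.80 in the same groups. The IFNG spot was well above background in 2 of 8 restricted high, 6 of 8 high and 3 of 8 low RFI pigs, so its differences rest largely on values near background and are not given. The smallest p of the list belonged to STAT3, which relays interleukin-6 signals, at 0.89 ± 0.23 between restricted high and low RFI pigs (SE, limma adjusted p = 0.0877). STAT3 averaged 0.49 ± 0.67 in restricted high, 0.13 ± 0.44 in high and -0.41 ± 0.21 in low RFI pigs (SD, n = 8 each). Its 3 other probes differed there by 0.40 to 0.43, and for high minus low RFI by -0.048 to 0.091, against 0.53 for the probe named. Its within-group r with UBD was -0.29. The interferon-activated factor IRF1 was at 0.0080 for restricted high minus low RFI and at 0.32 ± 0.14 for high minus low RFI (SE, limma adjusted p = 0.438).

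Interferon-responsive genes stood highest on average in high RFI pigs and close together in restricted high and low RFI pigs, without passing the test. Of 19 measured interferon gamma targets limma called 0 in each comparison, with 0 at an unadjusted p under 0.05 between restricted high and low RFI pigs and 9 between high and low RFI pigs. Over all named genes the share at an unadjusted p under 0.05 was 12.2% and 9.52% in these comparisons. Their median difference was 0.31 for high minus low RFI, with 17 of 19 above 0, and 0.072 for restricted high minus low RFI, with 13 of 19 above 0. Type I interferon targets had medians of 0.63 and 0.080 in the same comparisons, with 19 and 15 of 19 above 0 and 0 called. In the restricted high minus high comparison the medians were -0.25 and -0.45. UBD had 1.73, 1.50 and -0.23 in these comparisons. The immunoproteasome subunit PSMB10 had the smallest p among the gamma targets, at 0.51 ± 0.15 for high minus low RFI (SE, limma adjusted p = 0.187), and of the alternatives run it passed only without low RFI pig 5 (0.63, limma adjusted p = 0.0357).

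**Figure D3:**
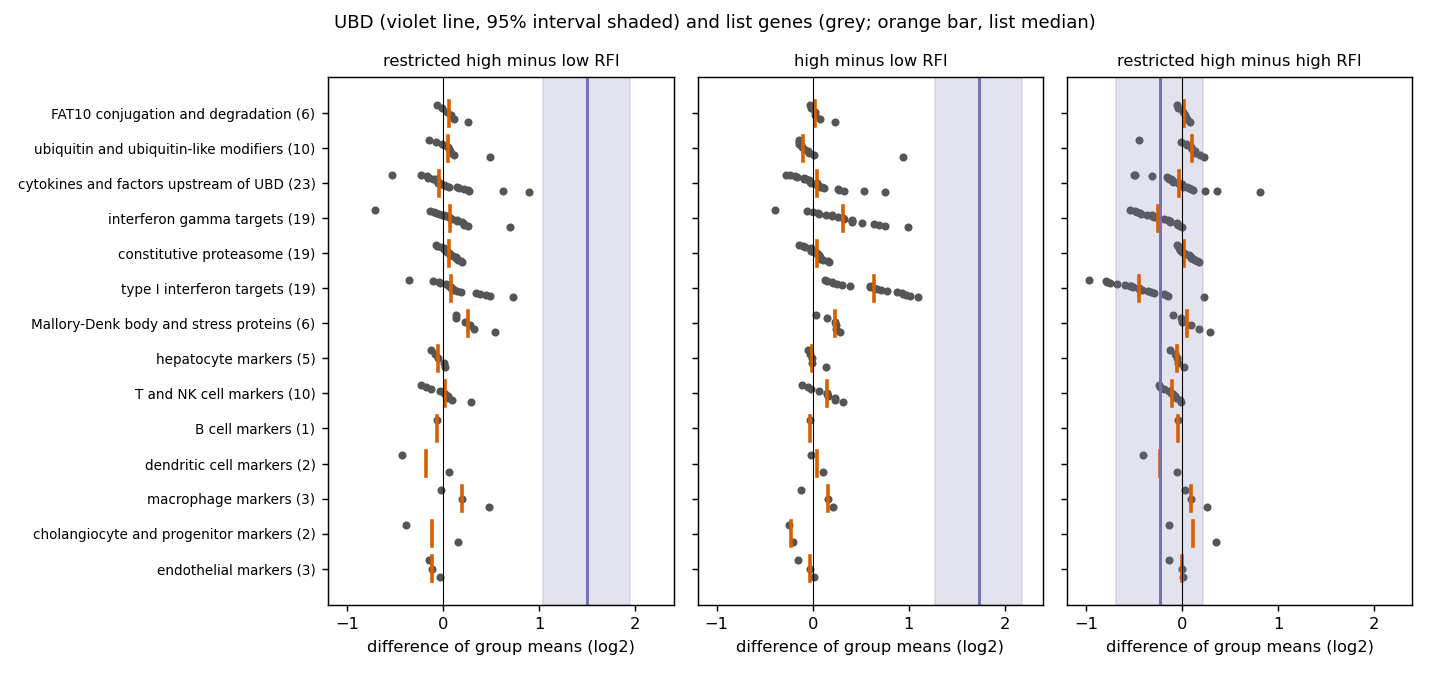
Difference of group means (log2, x axis) of each measured gene (grey points) of 14 gene lists, with the list median as an orange bar and the number of genes in brackets, for restricted high minus low, high minus low and restricted high minus high RFI pigs. The violet line and shading are the UBD difference and its 95% interval, drawn for scale, since UBD was picked for its line difference. The medians of interferon gamma and type I interferon targets lie at 0.072 and 0.080 for restricted high minus low RFI and at 0.31 and 0.63 for high minus low RFI.

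High RFI pigs 5 and 7 stood apart in these genes. The 38 measured interferon targets, each centred on its mean over the 24 pigs, averaged 1.43 in high RFI pig 5 and 1.64 in high RFI pig 7, and -0.49 to 0.44 in the other 22 pigs. UBD was at 1.46 and 1.26 in these 2 pigs, which ranked 2 and 5 of 24. High RFI pig 1 had the highest UBD level, 1.64, and the lowest interferon average, -0.49. Low RFI pig 5 averaged 0.40 for the interferon targets and had a UBD level of -1.09. Without high RFI pigs 5 and 7 the high minus low difference of UBD was 1.64 ± 0.24 (SE). The medians of the gamma and type I targets were then 0.085 and -0.011, with 15 and 6 of 19 above 0. These pigs were left out for their high interferon average, so the lower medians follow from that choice and are no separate evidence.

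**Figure D4:**
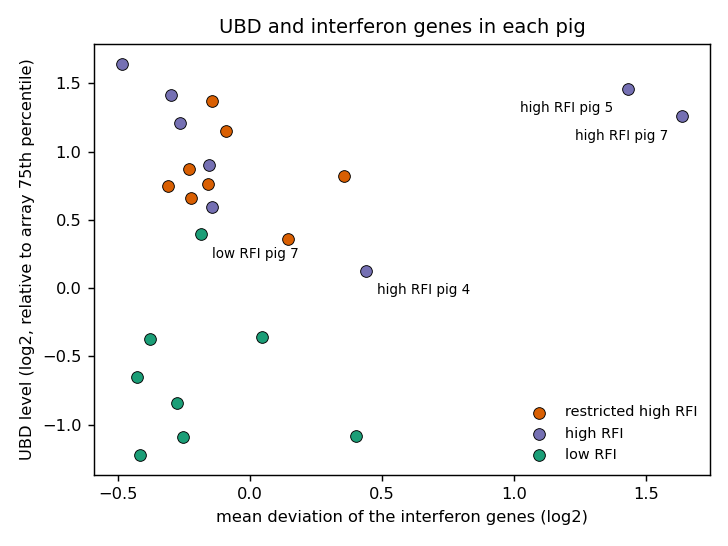
UBD level (y axis, log2 relative to the array's 75th percentile) against the mean deviation of 38 interferon targets (x axis, log2) in each of the 24 pigs, coloured by group. High RFI pigs 5 and 7 lie far to the right at 1.43 and 1.64, and the other 22 pigs lie between -0.49 and 0.44.

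Variation among pigs of the same group was not part of the line difference that singled out UBD, so it was tested whether UBD and the interferon genes moved together there. No relation passed. Of 14 genes chosen for this question 12 were measured, among them CXCL9, CXCL10, PSMB9, PSMB10, IRF1, GBP1, B2M and NUB1. With group means removed, r with UBD over 24 pigs ran from -0.25 for the chemokine CXCL10 (permutation p = 0.289) to 0.18 for IRF1 (permutation p = 0.428). None of the 12 had a permutation p under 0.05, and the adjusted p was 0.951 for each (two-sided, 100000 permutations within groups, Benjamini-Hochberg over 12). Spearman's rho gave 0 calls as well, with adjusted p = 0.998 throughout. The chemokine CXCL9, a marker of interferon gamma action, had r = -0.089 (permutation p = 0.685) and rho = -0.053 (permutation p = 0.811). The immunoproteasome subunit PSMB9 had r = 0.041 (permutation p = 0.87) and rho = 0.034 (permutation p = 0.884). Without the 2 pigs farthest from the median, r was -0.065 for CXCL9, 0.16 for PSMB9, -0.29 for CXCL10 and 0.21 for IRF1.

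On the separate scan days r was -0.0057 and -0.071 for CXCL9 and -0.088 and 0.18 for PSMB9. PSMB10 had -0.51 on day 1 and 0.48 on day 2. Within single groups, 36 relations gave 0 calls. The highest r was 0.83 for B2M, the light chain of class I molecules, in restricted high RFI pigs (exact permutation p = 0.00893, adjusted over 36 relations to 0.321). B2M had 0.17 in high RFI and -0.28 in low RFI pigs. GBP1, a guanylate-binding protein induced by interferon gamma, had -0.16 in restricted high, -0.51 in high and 0.55 in low RFI pigs, with exact permutation p = 0.708, 0.192 and 0.153.

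Across the whole array, a model with group and UBD level found 0 of 29665 other probes that varied with UBD within groups (limma adjusted p under 0.05, 0.0% called), with 921 at an unadjusted p under 0.05, or 3.1%. Within-group r over these probes had a median of 0.0042, and 95% of the named genes lay between -0.38 and 0.38. All that follows on likeness is therefore a description. The named genes with the highest r were LIPA, the lysosomal acid lipase that frees fatty acids and cholesterol from lipoprotein lipids (0.73), and TGFA, a growth factor ligand of the epidermal growth factor receptor (0.64). They were followed by KLF3 (0.58), RAB11FIP2 (0.58), the cytochrome P450 CYP2C42 (0.57), P14ARF (0.57), ASTE1 (0.57), C14H1orf198 (0.57), PLA2G7, which degrades platelet-activating factor (0.56), and FAM212B (0.56).

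Agreement between probes of a gene and between groups differed among these genes. The 3 other probes of LIPA had r = 0.24 to 0.71, and its r was 0.65 in restricted high, 0.73 in high and 0.82 in low RFI pigs. LIPA itself was even across the groups, at 4.69 ± 0.23 in restricted high, 4.68 ± 0.40 in high and 4.62 ± 0.28 in low RFI pigs (SD, n = 8 each). Without the 2 farthest pigs its r was 0.53. The 4 other probes of PLA2G7 had r = 0.47 to 0.53, and the 3 other probes of TGFA 0.35 to 0.59. KLF3 had r = -0.061 in high RFI pigs against 0.96 in low RFI pigs. Low RFI pig 7 was the highest of its group in KLF3, at -1.43, and in UBD, at 0.39. Over these most similar genes, r without the 2 farthest pigs ran from 0.36 for RAB11FIP2 to 0.71 for TGFA. It was 0.41 for PLA2G7 and 0.50 for KLF3, and it rose only for TGFA and CYP2C42 (0.63).

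At the other end stood GNPAT, an enzyme of ether lipid synthesis (-0.67), NEMF (-0.65), WDFY3 (-0.64), POSTN, which encodes the matrix protein periostin (-0.63), and CARMIL1 (-0.63). All 6 kept probes of POSTN had r of -0.63 to -0.49, and by group its r was -0.73 in restricted high, -0.66 in high and -0.68 in low RFI pigs. The 4 other probes of GNPAT had r = -0.27 to -0.03. By the probes named, none of these 15 genes passed the threshold in a comparison between groups, and FAM212B had -0.74 between restricted high and low RFI pigs (limma adjusted p = 0.0536). Between the same groups another probe of FAM212B passed at -1.10 ± 0.24 and another probe of KLF3 at -1.33 ± 0.27 (SE, limma adjusted p = 0.0495 and 0.033). The within-group r of these probes with UBD was 0.47 for FAM212B and -0.016 for KLF3.

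**Figure D5:**
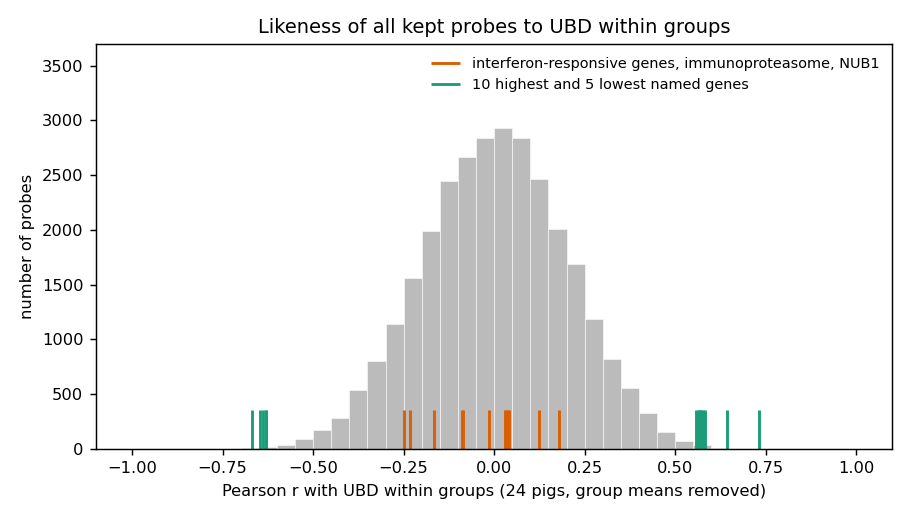
Number of kept probes (y axis) by their Pearson r with UBD within groups over 24 pigs (x axis), with the 12 measured genes of the correlation family (interferon-responsive genes, immunoproteasome subunits and NUB1) as orange ticks and the 10 highest and 5 lowest named genes as green ticks. The orange ticks lie between -0.25 and 0.18 in the body of the distribution, and LIPA at 0.73 is the tick farthest to the right.

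A list of Mallory-Denk body and stress proteins gave 0 calls among 6 measured, all 6 above 0 in both comparisons with low RFI pigs. Keratin 8, KRT8, was at 0.23 for restricted high minus low and 0.24 for high minus low RFI, and its 3 probes had within-group r with UBD of 0.37 to 0.41. The endoplasmic reticulum chaperone HSPA5 was at 0.54 ± 0.15 for restricted high minus low RFI (SE, limma adjusted p = 0.125), with a within-group r of -0.35. The list medians were 0.25 and 0.23, beside -0.0092 and -0.011 over all named genes.

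Markers of hepatocytes were bright in all pigs, with the mean of 5 genes (ALB, APOA1, TF, TTR and SERPINA1) at 8.58 to 8.75 in restricted high, 8.54 to 8.88 in high and 8.64 to 8.77 in low RFI pigs. UBD is constitutive in lymphoid and dendritic cells, so their markers were set beside it. The mean of 10 T and NK cell markers ran from -1.35 to -0.50 in restricted high, -1.04 to -0.39 in high and -1.14 to -0.61 in low RFI pigs, and 9 of the 10 had a within-group r with UBD below 0. The lowest of these was -0.32, for KLRK1. The B cell marker CD79A was dim, at -4.27, -4.23 and -4.20 on average in the same order, and the dendritic cell marker CD83 was at -5.10, -4.70 and -4.68, well above background in 5, 7 and 6 of 8 pigs. CCR7, the other kept dendritic cell marker, was brighter, at -2.54, -2.49 and -2.60. It differed by 0.058 between restricted high and low and by 0.11 between high and low RFI pigs. CD83 differed by -0.43 and -0.021 in these comparisons. Of 26 marker genes kept limma called 0 in each comparison. The macrophage marker CD163, the haemoglobin scavenger receptor, was at 0.48 ± 0.16 for restricted high minus low RFI (SE, limma adjusted p = 0.199), and its r with UBD was -0.48. Its 3 other probes differed by 0.60 to 0.71, and these passed without restricted pig 5, at 0.68 to 0.85 (limma adjusted p = 0.01 to 0.0222). The other kept macrophage markers did not share the size of this difference. CD14 was at -0.027 and VSIG4 at 0.19 between the same groups (limma adjusted p = 0.912 and 0.656). The part of these cells in the UBD level was not tested.

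Of the kept genes nearest to UBD on its chromosome, none passed in a comparison. In the RefSeq order of Sscrofa11.1, the 5 nearest kept genes on each side were LOC100154508, ZSCAN16, ZNF389, ZSCAN12 and GPX6 on one side and OLF42-3, the adjacent entry, GABBR1, ZFP57, ZNRD1 and PPP1R11 on the other. Counted in RefSeq entries from UBD, those of the first side stood at -67 to -19 and the others at 1 to 8. The first side therefore holds only genes at some distance from UBD. Limma called 0 of the 10 in each comparison. The within-group r with UBD was -0.21 to 0.25. OLF42-3, an olfactory receptor gene, differed by -0.052 between restricted high and low and by -0.020 between high and low RFI pigs. The largest difference was 0.87 for LOC100154508, high minus low RFI (limma adjusted p = 0.148), the outermost of the 5 on its side, which was at 0.30 for restricted high minus low RFI.

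In all, the lists held 124 measured genes and limma called 0 of them in each comparison. At an unadjusted p under 0.05 there were 7 (5.65%) between restricted high and low RFI pigs, 16 (12.9%) between high and low RFI pigs and 3 (2.42%) between restricted high and high RFI pigs. Over all named genes these shares were 12.2%, 9.52% and 4.96%. The lowest adjusted p in the lists was that of STAT3.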

How the data were processed

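Per the labels' protocols, 150 ng of liver RNA was amplified with Cy3 for each pig. The intensity values used were deposited by the authors as scanner output of Agilent Feature Extraction 10.7.3.1 (1 colour, 45220 features, 1417 of them controls), already background-subtracted and detrended per the file headers, with flags of 0 or 1 per spot. A second file that the authors deposited holds log2 values of 27564 features, equal to the log2 processed signals centred on each array's median. The submitters' processing notes name R 2.10.0.

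From the processed signal, log2 values minus each array's 75th percentile were computed, spots flagged as outliers were left out (0.1% of values), and 29666 probes were kept. Groups were compared with limma 3.58.1 in R 4.3.3 (lmFit, eBayes, all 24 arrays, group as the factor), with Benjamini-Hochberg adjustment over all kept probes and a threshold of 0.05, after the script had been tested on simulated data. Plots and permutations used Python 3.11.15, numpy 2.4.6, pandas 2.3.3, scipy 1.17.1 and matplotlib 3.10.9. Of 43603 probes, 12037 received 1 gene symbol through the array's own names, accessions or descriptions and the pig tables of RefSeq (assembly Sscrofa11.1, names and gene order only), 349 a numbered locus only, 6 matched several genes and 31211 stayed unnamed. Levels of different probes are not comparable, and the number of arrays limits the precision.

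A gene is given by its brightest kept probe, or for likeness to UBD by its most similar one. Named are UBD, the measured FAT10 genes, the genes of the correlation family, in other lists genes past the threshold or among the 3 smallest p per comparison that bear on the text, the 10 most and 5 least similar genes within groups, the 10 most similar over 24 arrays, and 5 kept neighbours per side. Further genes of the lists that the text names, such as TNF, KRT8 and RPS27A, were chosen after their values were seen. The members and lists were chosen with earlier results of these data known. Same-numbered pigs of different groups were checked for pairing: of 24 pairs, 8 correlated above 0.1 (range -0.19 to 0.42). The numbers were not taken as pairing. Pigs with different numbers were not compared, so the check does not settle whether the pigs are paired. The alternatives tried were other background corrections, scalings, probe filters, blocks and array weights, single scan days, and leaving out pigs or slides. Results for some genes of the lists are not reported here.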

Additional observations from a re-analysis of the deposited data

Results flagged for a closer look

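Of 309 sets of 8 pigs (103 named genes or probes in 3 groups), 16 held a pig whose gap to its nearest neighbour exceeded 0.526 of the group's range (Dixon's 95% critical value for 8). Chance flags about 1 in 20 such sets, and 5.18% were flagged here. UBD was not flagged in any group.

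OAZ3 in low RFI pig 7 was at 0.23, with the nearest low RFI pig at -2.02, and the same pig had the highest UBD level of its group. In the epithelial marker EPCAM that pig was lowest, at -1.08, with the nearest at -0.47. High RFI pig 7, one of the pigs with high interferon targets, had the highest STAT3 (1.12), the lowest SUMO4 (1.94) and the lowest CYP3A29 (5.52) of its group. Low RFI pig 5 had the highest MX2 (0.70), the lowest TTR (8.64) and the lowest FAM83F (-3.82). Low RFI pig 1 had the lowest B2M (7.42) and NKG7 (-1.12), low RFI pig 8 the lowest OAS2 (2.89) and low RFI pig 4 the lowest PSMB4 by the probe most like UBD (4.92). In restricted high RFI pigs, pig 8 had the lowest KRT18 (4.30), pig 3 the lowest CD3G (-3.36), pig 4 the lowest CCR7 (-3.27) and pig 5 the highest CYTH4 (-2.59).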

How the results depend on the processing

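The UBD difference kept its sign in each of 44 alternatives per comparison, from 1.13 to 1.79 for restricted high minus low, 1.25 to 2.09 for high minus low and -0.37 to -0.099 for restricted high minus high RFI. With normexp background correction it was 1.19, 1.38 and -0.19. High minus low moved by more than the pig-to-pig SD only on scan day 1 alone, at 1.25. Leaving out single pigs gave 1.41 to 1.65, 1.65 to 1.88 and -0.37 to -0.15, and leaving out single slides 1.25 to 1.67, 1.54 to 1.95 and -0.31 to -0.099.

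Counts of called probes moved further. Between high and low RFI pigs, 48 in the main setting became 5 under normexp (4 higher and 1 lower, against 24 and 24), 28 with no filter on dim probes, and 5 and 10 on scan days 1 and 2, and leaving out single pigs gave 27 to 57 (27 without high RFI pig 3, 28 without pig 2 and 30 without pig 6). Between restricted high and low RFI pigs, 68 became 13 under normexp (10 higher and 3 lower, against 37 and 31), 36 on scan day 1, 10 on scan day 2, and 32 when fitted with these groups alone, and leaving out single pigs gave 30 (without low RFI pig 8) to 145 (without restricted pig 1). It was 37, 40 and 45 without restricted pigs 7, 2 and 8 and 122 without restricted pig 5. Between restricted high and high RFI pigs the count of 0 became 1 on scan day 2 and 0 to 1 over single pigs left out (1 without low RFI pig 5). With UBD as slope it was 0 under each alternative, as was the count of called correlations. Single days and omitted pigs also leave smaller samples, and the cause of these changes was not tested.

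With the pig number as a replicate block the differences of UBD were the same. The counts of called probes were 50 between high and low, 0 between restricted high and high and 103 between restricted high and low RFI pigs. List genes passed where none had. They were TAP2 (0.70, by a probe other than its brightest) between high and low, 1 gene, and STAT3 (0.89) and CD163 (0.71) between restricted high and low RFI pigs, 2 genes. The numbers were not taken as pairing, but pairing was not settled. Between restricted high and high RFI pigs, same-numbered pigs 3 to 7 correlated at 0.14 to 0.42, and pigs 1, 2 and 8 at -0.037 to 0.019. Leaving out single pigs gave 0 to 1 list genes in both line comparisons, PSMB10 without low RFI pig 5 and CD163 without restricted pig 5. CD163 also passed with array weights and without slide 6. Of the other genes named, 36 tests lost and 17 gained a call over all alternatives, most of the lost calls being those of MTRF1 and SLC2A4 between restricted high and low RFI pigs, and none of the called differences changed sign.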
